A study of Mus musculus with 6 samples.

Results

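miR-6236 and miR-5099 are the 2 microRNAs (miRNAs) that the study named in the extracellular vesicles (EVs) of a mouse B cell line. They are counted here as the genes Mir6236 (ENSMUSG00000098973) and Mir5099 (ENSMUSG00000092998), 2 of the 47729 genes in the count files. They were chosen by their detection and their name. Of the 2207 genes with the miRNA biotype in GENCODE M21, 64 had any count, 11 had a count in each of the 6 samples, and these 2 were the only ones of the 11 with a Mir symbol. Their presence in every sample is therefore what selected them and is no result. The study also compared both between its conditions, so the tests given here are not independent evidence of a difference.

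The EVs came from WEHI-231 cells, a line derived from a mouse splenic B cell lymphoma. The cells were treated for 1 h with an anti-CD24 antibody at 10 µg/mL bound beforehand to an anti-rat secondary antibody (5 µg/mL), or with a matched isotype antibody and the same secondary antibody, which served as the unstimulated control. CD24 is a glycoprotein anchored on the surface of developing B cells. EVs were pulled down from the medium with the Vn96 peptide, and their RNA was made into libraries without fragmentation or removal of ribosomal RNA (rRNA) and read on an IonTorrent PGM, with 3 biological replicates per condition. All results come from this 1 line. Barcode 1 marked each isotype library and barcode 2 each anti-CD24 library, so barcode and condition cannot be told apart, whereas replicate number and sequencing run went together.

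A miRNA is cut from a hairpin in its primary transcript by the nuclease Drosha and then by Dicer. The short mature strand is held by an Argonaute protein and pairs with messenger RNAs mainly through its seed, which lowers their translation or stability. EVs can carry miRNAs from one cell to another. The sequences are shown first because the count of such a short gene depends on which other RNAs resemble it. RefSeq (GRCm38.p6) gave the mature strand of miR-6236, in which capitals mark the seed (bases 2 to 8), and the hairpin of miR-5099, in which capitals mark the 58 bases that are paired in its predicted fold.
mmu-miR-6236: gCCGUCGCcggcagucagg
Mir5099 hairpin: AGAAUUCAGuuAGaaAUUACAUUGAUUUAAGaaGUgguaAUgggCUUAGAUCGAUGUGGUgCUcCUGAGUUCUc

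The mature miR-6236 sequence was 19 bases long, and 78.9% of it was G or C. Of the 1738 mature mouse miRNAs in the RefSeq table, 20 had a GC content at least as high, itself included, and no other one had its seed, CCGUCGC. It lay at chr9:110281353-110281371 on the plus strand of GRCm38, which is bases 67 to 85 of the Mir6236 gene (chr9:110281287-110281409). The gene was 123 bases long and overlapped no other annotated gene. Cspg5, a protein-coding gene of the same strand, ended 18711 bases before it, and Gm42775, a lincRNA gene of the minus strand, lay 7543 bases after it. Mir5099 (chr12:36816205-36816278, plus strand) was 74 bases long with 37.8% G or C, and it too was intergenic, 126702 bases after Ispd and 61687 bases before the lincRNA gene Gm40394.

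The predicted folds of the 2 genes differed. RNAfold paired 78.4% of the bases of Mir5099, more than in 89.8% of the 1005 mouse miRNA hairpins in RefSeq, with an uninterrupted helix of 16 base pairs, longer than in 92.3% of them. In Mir6236 it paired 58.5% of the bases, and only 7.86% of the hairpins had a smaller paired part. Its longest uninterrupted helix was 6 base pairs, against a median of 9 for the hairpins, and its gene was longer than 96.9% of them. The predicted energy was -45.4 kcal/mol for Mir6236 and -26.6 kcal/mol for Mir5099, and per base 34.2% and 30.9% of the hairpins were less stable than these. Each gene folded with 1 hairpin loop, as did 94.5% of the hairpins. In Mir6236, 14 of the 19 mature bases were paired. These are predictions for RNA alone, and the count files do not show which bases of a gene the reads covered. The trimming parameters in the methods appear to set a minimum read length above the 19 bases of mature miR-6236, so the counts of both genes may come from longer RNA and are counts of the gene, not of the mature strand.

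Neither gene had a close copy among the 141767 annotated mouse transcripts. Matches had to span 18 bases or more with 90% of them identical. The longest sense match of Mir6236 to another gene was 32 of its 123 bases, and that of Mir5099 was 22 of its 74 bases. Short matches to Mir6236 were found in 151 other genes. The most counted of these was Ahnak, a large scaffold protein gene, with 28 counts over all samples, beside 7116 counts of Mir6236. For Mir5099 there were 9 such genes, led by the kinase gene Jak1 with 8 counts, beside 174 counts of Mir5099. Of the other 9 miRNA-biotype genes detected in every sample, 7 matched another gene over at least 80% of their length. Neither Mir6236 nor Mir5099 matched the rRNA gene n-R5-8s1 or the loci Gm42418, Gm26917, Lars2 and CT010467.1. Their likeness to 28S rRNA was not tested, as that sequence is not among the transcripts used here.

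The libraries held 166129 to 794185 counts on genes, of which 84.8% to 91.4% fell on rRNA and ribozyme genes, leaving 15626 to 112042 non-rRNA counts per sample. A level is given here in CPM (counts per 1000000 counts on genes of the library), with its 95% Wilson interval, which covers counting error only. At these depths 3 counts, taken as the smallest number that shows a gene, amounted to 3.78 to 18.1 CPM. All such levels are shares of a library, whose total may hold a read more than once where genes have copies. More EVs, or more of an RNA in each EV, cannot be told apart by them. All EVs came from the cultured B cell line, and reads of B cell marker genes were few. Of 10 such genes, 8 had a count and none was found in every sample. Together they gave 0 to 10 counts in the isotype EVs and 6 to 13 in the anti-CD24 EVs. Of all 47729 genes, 9700 had a count and 306 had one in every sample.

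Mir6236 was the more abundant gene. It had 383, 115 and 545 counts in isotype replicates 1, 2 and 3, and 3550, 1746 and 777 counts in anti-CD24 replicates 1, 2 and 3. As a level this was 1188 CPM (95% interval 1075 to 1313), 692 CPM (577 to 831) and 714 CPM (656 to 776) in the isotype EVs. In the anti-CD24 samples the level was 5817 CPM (5629 to 6011), 2371 CPM (2262 to 2485) and 978 CPM (912 to 1050). From the highest sample to the lowest, each interval lay clear of the next except those of isotype replicates 3 and 2, which overlapped. The groups overlapped, since anti-CD24 replicate 3 lay below isotype replicate 1. The mean level was 865 ± 280 CPM (SD, n = 3) for isotype and 3055 ± 2491 CPM (SD, n = 3) for anti-CD24, 3.53 times as high, a difference within the spread between replicates (exact permutation test, two-sided, p = 0.2, where the smallest possible is 0.1).

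Mir5099 was found at far lower depth, with 12, 10 and 7 counts in the isotype EVs and 45, 82 and 18 counts in the anti-CD24 EVs. Its level was 37.2 CPM (95% interval 21.3 to 65.1), 60.2 CPM (32.7 to 111) and 9.17 CPM (4.44 to 18.9) in isotype replicates 1, 2 and 3. It was 73.7 CPM (55.1 to 98.7), 111 CPM (89.7 to 138) and 22.7 CPM (14.3 to 35.8) in the anti-CD24 EVs. In order of level, the interval of each sample overlapped that of the next, so neighbours in that order did not differ clearly beyond counting error. Replicate 3 was the lowest of both groups and replicate 2 the highest. The groups overlapped, with means of 35.5 ± 25.6 CPM (SD, n = 3) and 69.2 ± 44.5 CPM (SD, n = 3), a ratio of 1.95 (exact permutation test, two-sided, p = 0.4). Over all 6 samples the highest level was 12.1 times the lowest for Mir5099 and 8.40 times for Mir6236.

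**Figure D1:**
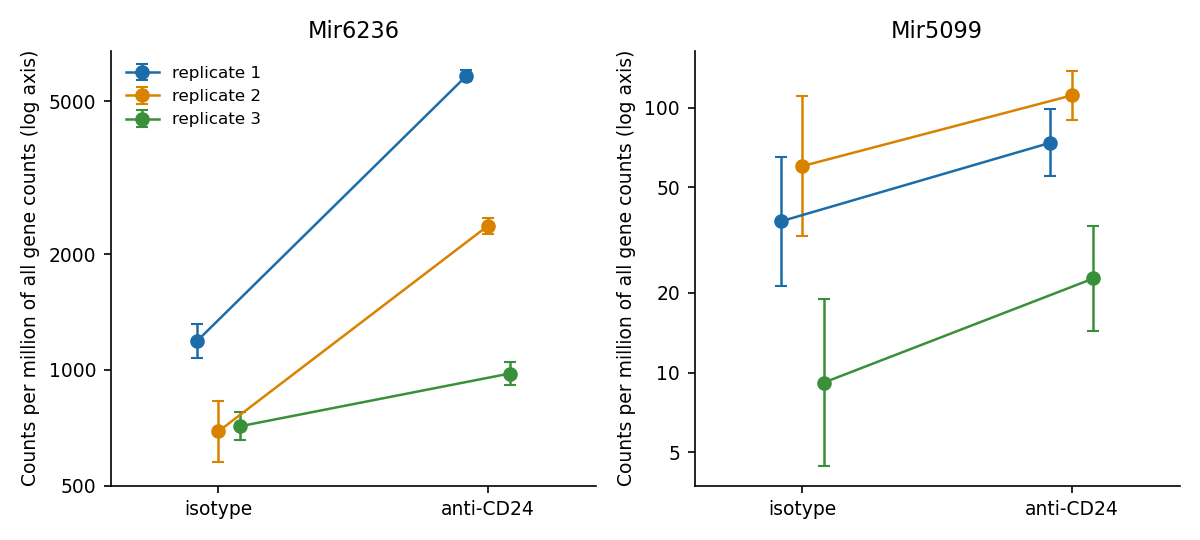
Level of Mir6236 and Mir5099 in each library, in CPM on a log axis, with 95% Wilson intervals and lines joining the libraries of one replicate number. Each of the 6 lines rises from isotype to anti-CD24, while the groups overlap for both genes, at 692 to 1188 against 978 to 5817 CPM for Mir6236 and 9.17 to 60.2 against 22.7 to 111 CPM for Mir5099.

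Within the replicate pairs, each read on 1 run, both genes were higher after anti-CD24 in 3 of 3 pairs. The anti-CD24 to isotype ratio of CPM was 4.90, 3.42 and 1.37 for Mir6236 in pairs 1, 2 and 3. It was 1.98, 1.85 and 2.47 for Mir5099. These ratios rest on 12, 10 and 7 isotype counts, so counting error is too wide to compare their range with that of Mir6236. For each gene the exact sign-flip test of the 3 differences gave p = 0.25, the smallest that 3 pairs allow. A rise in all 3 pairs was not rare among the genes: 148 of the 1501 genes tested, or 9.86%, showed it. Nor was it particular to the 2 among the miRNA-biotype genes with a count in every sample. Gm23935, Gm24270, Gm24187, Gm25911, Gm24245 and Snord43 also rose in all 3 pairs, and n-TStga1, Gm44456 and Gm23388 in 2.

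The same contrast was tested across all genes with edgeR's quasi-likelihood test, on the 1501 genes with at least 1.0 CPM in 3 or more samples. Neither gene passed an adjusted p of 0.05. For Mir6236 the log2 fold change was 1.89 (SE 0.75, 95% interval 0.43 to 3.35, unadjusted p = 0.011), with an adjusted p of 0.49 by Benjamini-Hochberg over the 1501 genes. It had the 20th smallest p, and its log2 fold change was above that of 92.1% of the genes. For Mir5099 it was 1.16 (SE 0.96, 95% interval -0.72 to 3.03; adjusted p = 0.63 from the same edgeR test), above that of 79.7% of the genes. The interval of Mir5099 reaches from a decrease to a change larger than the estimate of Mir6236, so its direction was not resolved at 7 to 82 counts per sample. Over all genes 1 of 1501 (0.0666%) was called, the zinc finger gene Zfp260, which was lower after anti-CD24. The median log2 fold change of all genes tested was -0.29, and relative to it the values were 2.18 for Mir6236 and 1.45 for Mir5099.

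**Figure D2:**
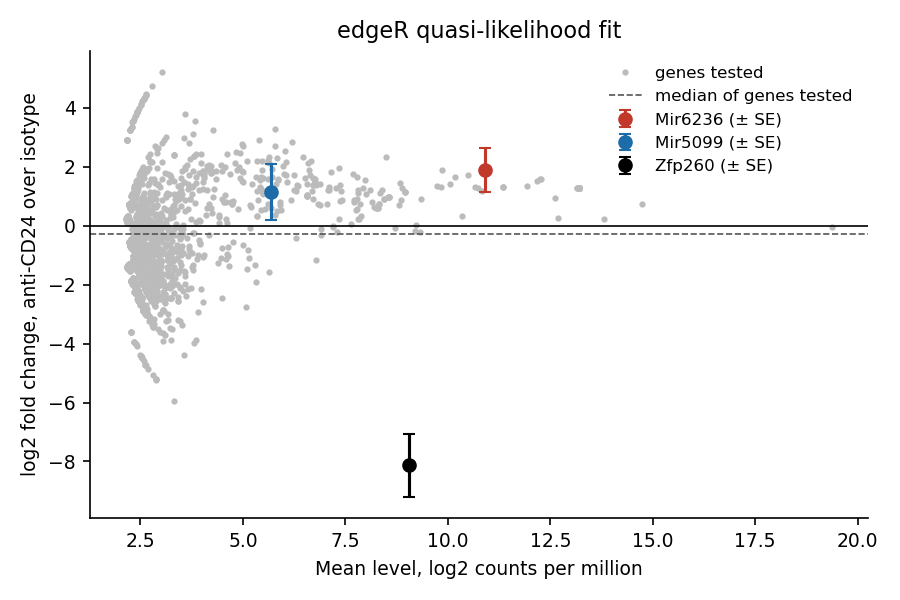
Log2 fold change (anti-CD24 over isotype) from the edgeR quasi-likelihood fit against the mean level in log2 CPM for the 1501 genes tested, with Mir6236, Mir5099 and Zfp260 drawn with their standard errors and the dashed line at the median of -0.29. Mir6236 at 1.89 lies at the upper edge of the genes of similar level and Mir5099 at 1.16 among them, and Zfp260, the only gene called, lies far below it.

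The call on Mir6236 turned on 1 library. Without anti-CD24 replicate 3, whose TMM factor of 0.51 was the lowest of the 6 (the others were 0.87 to 1.37), its log2 fold change was 2.22 (SE 0.58) and its adjusted p in the edgeR test was 0.048, as 1 of 3 genes called of 1285, with Snord55 and Snord83b. Over the 13 alternative settings the log2 fold change of Mir6236 ran from 1.34 to 2.32 and its adjusted p from 0.048 to 0.99. With the replicate number as a block it was 1.76, at an adjusted p of 0.99 in the edgeR fit. For Mir5099 the 12 settings that gave a value ran from 0.39 to 1.73, with adjusted p from 0.43 to 0.99 in edgeR or DESeq2. The lowest of these was the setting without isotype replicate 3, which held 7 counts of Mir5099.

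**Figure D3:**
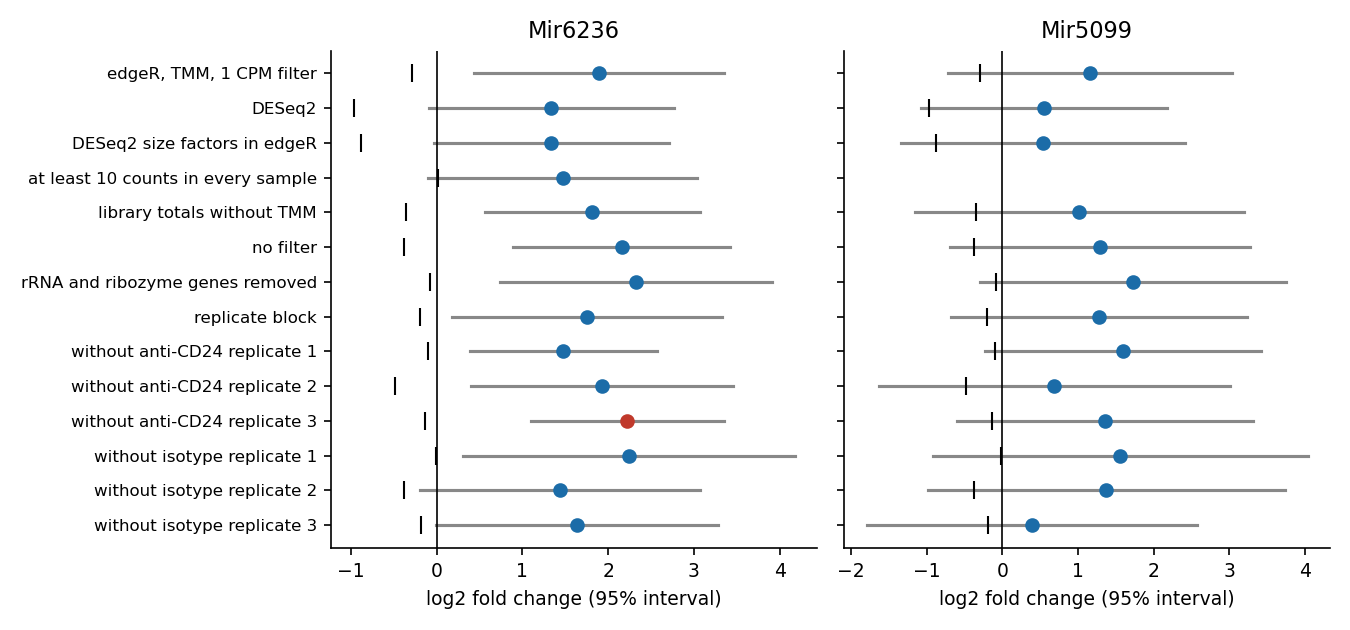
Log2 fold change (anti-CD24 over isotype) of Mir6236 and Mir5099 under each processing setting, with 95% intervals as grey bars, the median of all genes in that setting as a black tick, and a red point where the adjusted p was under 0.05. All points lie above 0 for both genes, and the 1 red point is Mir6236 without anti-CD24 replicate 3, at 2.22; Mir5099 has no value among genes with at least 10 counts in every sample.

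The size of the difference depended on what the counts were divided by. As a share of the non-rRNA counts, Mir6236 was 1.38%, 0.736% and 0.790% in isotype replicates 1, 2 and 3, and 5.49%, 1.56% and 0.954% in the anti-CD24 EVs. The means of 0.968% ± 0.356 and 2.67% ± 2.46 (SD, n = 3 each) differed by 1.70 percentage points (exact permutation test, two-sided, p = 0.2). Without anti-CD24 replicate 1 the difference was 0.288 points, so this library set most of its size. As a share of the counts on miRNA-biotype genes, Mir6236 was 9.99%, 5.69% and 9.95% in the isotype EVs and 28.9%, 10.5% and 3.89% in the anti-CD24 EVs. By this measure it was lower after anti-CD24 in pair 3, with a change of -6.06 points, and higher in pairs 1 and 2, by 18.9 and 4.79 points (exact permutation test over the groups, p = 0.7).

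Mir5099 took 0.0432%, 0.0640% and 0.0102% of non-rRNA counts in the isotype EVs and 0.0696%, 0.0732% and 0.0221% in the anti-CD24 EVs. The means differed by 0.0159 percentage points (exact permutation test, two-sided, p = 0.5), and by 0.0014 points without isotype replicate 3. Among the miRNA-biotype counts its share was 0.313%, 0.495% and 0.128% in the isotype EVs and 0.366%, 0.492% and 0.0901% in the anti-CD24 EVs. These means, 0.312% and 0.316%, were nearly equal (exact permutation test, p = 1), although the replicates ranged over 5.49-fold. Beside these shares, the miRNA-biotype genes other than the 2 took 12.4%, 12.1% and 7.15% of non-rRNA counts in the isotype EVs and 13.4%, 13.2% and 23.5% in the anti-CD24 EVs, the highest value being in anti-CD24 replicate 3.

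**Figure D4:**
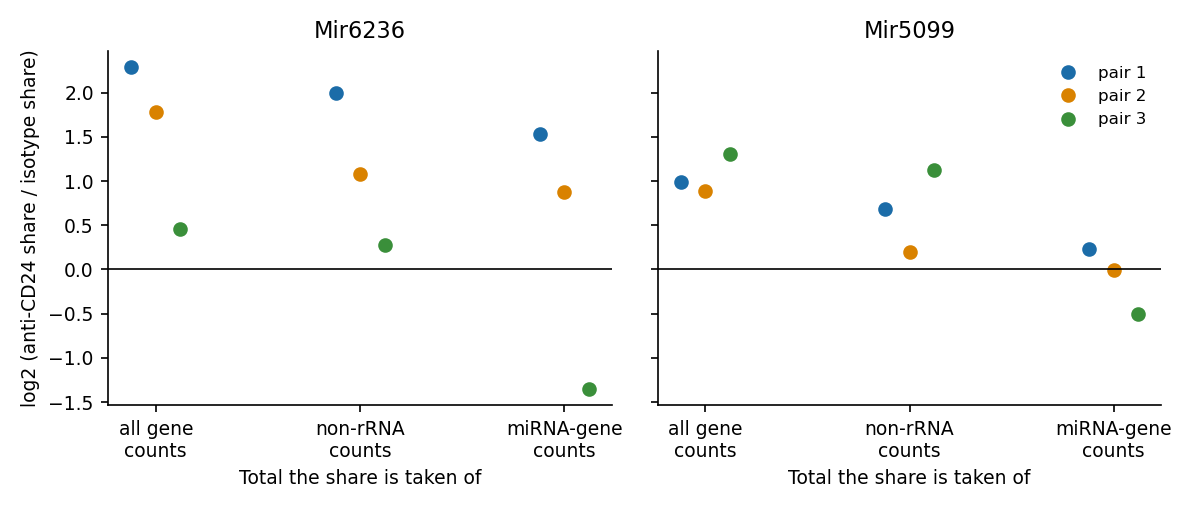
Log2 ratio of the anti-CD24 share to the isotype share of Mir6236 and Mir5099 in each replicate pair, with the share taken of all gene counts, of non-rRNA counts and of counts on miRNA-biotype genes. All points are above 0 for the first 2 totals, while with the miRNA-biotype counts as total pair 3 falls below 0 for both genes, at 3.89% against 9.95% for Mir6236 and 0.0901% against 0.128% for Mir5099, and pair 2 of Mir5099 lies just below 0, at 0.492% against 0.495%.

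The ratio of Mir6236 to Mir5099 counts within a library does not depend on depth or scaling. It was 31.9 (95% exact interval 18.1 to 62.3), 11.5 (6.03 to 24.6) and 77.9 (37.5 to 195) in isotype replicates 1, 2 and 3. In the anti-CD24 samples it was 78.9 (58.8 to 108), 21.3 (17.1 to 26.9) and 43.2 (27.1 to 73.2). Per base of gene length the level of Mir6236 was 6.92 to 46.8 times that of Mir5099 in the isotype EVs and 12.8 to 47.5 times in the anti-CD24 EVs. The 2 genes thus did not keep a fixed ratio. The intervals of anti-CD24 replicates 1 and 2 lay apart, as did those of isotype replicates 2 and 3. The log2 ratio was 4.93 ± 1.38 in the isotype EVs and 5.38 ± 0.95 in the anti-CD24 EVs (SD, n = 3 each), a difference of 0.45 within the spread (exact permutation test, two-sided, p = 0.6). It was higher after anti-CD24 by 1.31 and 0.89 in pairs 1 and 2 and changed by -0.85 in pair 3, and the group difference turned to -0.26 without isotype replicate 2 and to -0.012 without anti-CD24 replicate 1.

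Among the 11 miRNA-biotype genes with a count in every sample, Mir6236 was 4th by summed counts and Mir5099 8th. The 3 above Mir6236 were Gm23935, Gm24270 and Gm24187, with 15492, 15134 and 14443 counts, predicted genes of 57 bases that match each other over at least 80% of their length, as do Gm25911, Gm24245 and Gm23388. Reads of these 6 could match several copies and may have been counted for each. Their counts are therefore uncertain one by one, and the miRNA-biotype total may hold a read more than once. The other 3 were Snord43, a snoRNA by its symbol, and n-TStga1 and Gm44456, which had identical counts in every sample; n-TStga1 is a serine tRNA by its symbol. Per base of length Mir6236 ranked 4th to 6th among the miRNA-biotype genes and Mir5099 7th to 10th. Mir6236 was also the 3rd most counted non-rRNA gene in anti-CD24 replicate 1, and the 9th to 16th in the other samples. Together the 2 genes made up 10.3%, 6.19% and 10.1% of the miRNA-biotype counts in the isotype EVs and 29.3%, 11.0% and 3.98% in the anti-CD24 EVs.

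Of the miRNA-biotype genes, 13 were tested with edgeR and none was called in either direction. The fold changes of all 13 were above 0, with a median log2 fold change of 1.50, while 671 of the 1501 genes tested were above 0 and their median was -0.29. The 6 near-identical genes are not separate observations in this count, nor are n-TStga1 and Gm44456, which had identical counts. Also among the 13 was n-TSaga9, which matched Gm44456 over at least 80% of the length of Gm44456. The other 53 miRNA-biotype genes with any count had at most 26 counts summed over the 6 samples, which is above the 18 counts of Gm23388, the lowest of the 11. The 35 of them with a Mir symbol had at most 9 each, and this follows in part from the choice of genes with a count in every sample.

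miRNAs usually described in B cells and other blood cells had few counts. Of a list of 38 such genes, which includes the host transcript Mir142hg with 1 count, 9 had any count. None had one in every sample, and none was abundant enough to be tested. Of all 1174 miRNA-biotype genes with a Mir symbol, 37 had any count and 2 had one in every sample. A larger share of the listed genes than of these thus had any count. Their summed counts were 0 to 5 in the isotype EVs and 1 to 5 in the anti-CD24 EVs. Mir155, which rises on B cell activation, Mir17 of the Mir17-92 cluster, and the myeloid Mir223 were at 0 in all samples. Mir150, a miRNA of mature lymphocytes, had 1 count in all, and Mir142, which blood cells share, had 1. At 3.78 to 18.1 CPM for 3 counts, lower levels were not detectable. Mature strands may also have been lost before counting, because the trimming step, as its parameters are printed in the methods, appears to discard reads as short as a mature miRNA. The counts at or near 0 are therefore no measure of mature strands. Transcripts of the miRNA machinery were few. Of 19 genes for processing and loading, 15 had a count and none had one in every sample, beside 9700 and 306 of all 47729 genes. The sums of the 19 were 4 to 15 counts in the isotype EVs and 3 to 19 in the anti-CD24 EVs. Only Dicer1, the double-stranded RNA binding partner Tarbp2 and the RNA-binding protein gene Ybx1 could be tested. Their log2 fold changes were -2.28 (SE 1.56), -1.87 (SE 1.49) and -0.72 (SE 1.35), at 0 to 4 counts per sample. None of the 3 was called by edgeR, and at these counts their direction was not resolved.

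The genes whose levels ran most like the 2 miRNA genes over the 6 samples were small nuclear and nucleolar RNAs. Likeness was taken as Pearson's r of log2(CPM + 1) over 6 samples, among the 134 genes with at least 10 counts in every sample, of which 107 had different counts. The 6 points share their libraries and depths, so r is a description. How many of the 107 were small nuclear or nucleolar RNAs was not counted, so the class of the closest genes is not shown to be particular to the 2 genes. For Mir6236 the closest were Snord55 (r = 0.93), Snord32a (0.91) and Snord49b (0.89), which belong to the box C/D snoRNAs that guide methylation of rRNA, followed by the snRNA genes Gm23971 and Gm23849 (0.85 each). The median r over all genes was 0.28. Without anti-CD24 replicate 1, r over the other 5 samples was 0.76 for Snord55, 0.72 for Snord49b and 0.84 for Gm23971. Snord55 had 232, 51 and 188 counts in isotype replicates 1, 2 and 3 and 2233, 636 and 135 in the anti-CD24 EVs, highest, like Mir6236, in anti-CD24 replicate 1. In pair 3, however, Snord55 fell from 246 CPM in the isotype EVs to 170 CPM after anti-CD24, while Mir6236 rose from 714 to 978 CPM. Snord32a, Snord49b, Gm23971 and Gm23849 also fell in pair 3.

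For Mir5099 the closest were Snord100 (r = 0.93), the snRNA genes Gm24924 (0.89) and Gm22042 (0.88), Snord42a (0.88) and the snRNA gene Gm26244 (0.88), against a median of 0.59. Without anti-CD24 replicate 1 these 5 values stayed between 0.87 and 0.92. Snord100 had 134, 57 and 123 counts in the isotype EVs and 487, 829 and 180 in the anti-CD24 EVs, highest, like Mir5099, in anti-CD24 replicate 2. The 2 miRNA genes had r = 0.63 with each other, above the median of 0.28 for Mir6236 and of 0.59 for Mir5099. The closest genes were picked as the highest r of 106 and 107 genes, so they give no yardstick for this pair. Gm23935, the most counted miRNA-biotype gene, had r of 0.36 with Mir6236 and 0.50 with Mir5099.

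**Figure D5:**
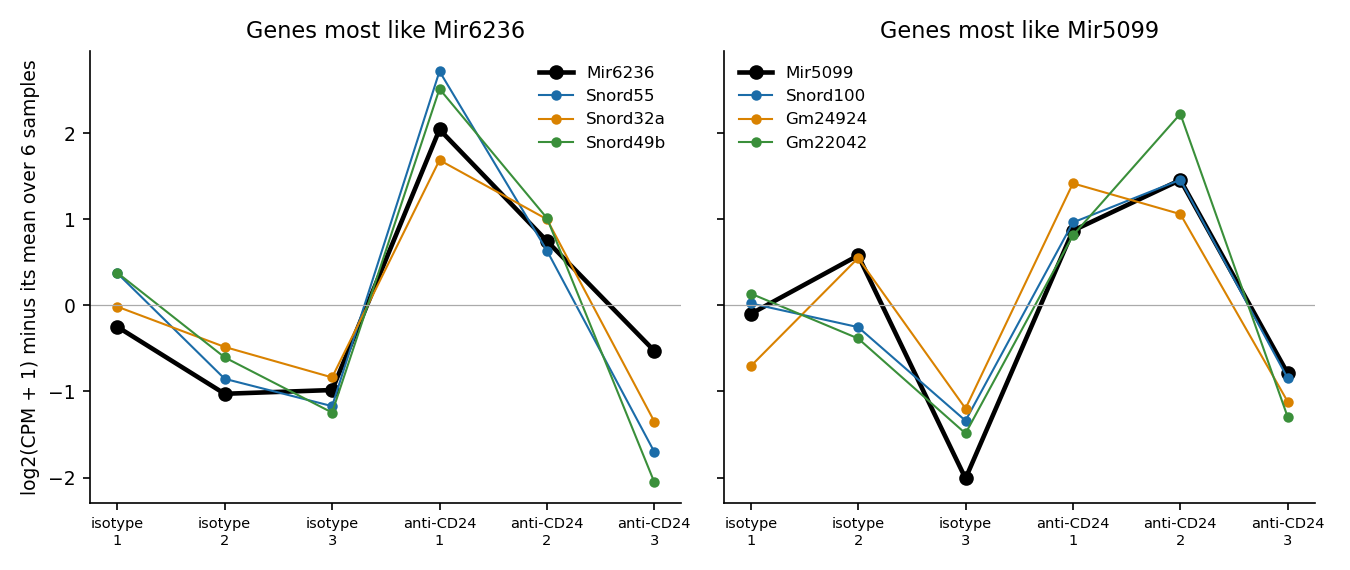
Level of Mir6236 (left) and Mir5099 (right) in each of the 6 libraries beside the 3 genes most like each, as log2(CPM + 1) minus the gene's own mean over the 6 libraries. Mir6236, Snord55, Snord32a and Snord49b are highest in anti-CD24 replicate 1, whereas Mir5099 and Snord100 are highest in anti-CD24 replicate 2 and low in both replicates 3.

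The snoRNA genes as a class were, like Mir6236, highest in anti-CD24 replicate 1, but unlike it they were lowest in anti-CD24 replicate 3. They took 5.92%, 3.46% and 3.74% of non-rRNA counts in the isotype EVs and 21.0%, 5.52% and 1.66% in the anti-CD24 EVs, and the snRNA genes took 6.47%, 5.27% and 4.64% and 10.2%, 9.72% and 2.56%. Anti-CD24 replicate 1, where Mir6236 was highest, also held all the counts of globin genes. Hbb-bs, Hbb-bt and Hba-a1 had 38, 36 and 13 counts there and 0 in the other 5 libraries. The 3 T cell markers had no count, and 3 myeloid markers gave 0 counts in the isotype EVs and 0 to 4 in the anti-CD24 EVs. In pairs 2 and 3 the anti-CD24 to isotype ratio of CPM for Mir6236 was 3.42 and 1.37. Without anti-CD24 replicate 1 its log2 fold change was 1.48 (SE 0.56), at an adjusted p of 0.15 in the edgeR test. The difference in its share of non-rRNA counts was then 0.288 points. Whether the globin counts and the level of Mir6236 were linked was not tested.

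A list of 8 rRNA, structural RNA and 45S-like loci was set beside the 2 genes. It holds the protein-coding gene Lars2, and CT010467.1, which had 0 to 9 counts per sample. All 8 were tested, none was called by edgeR, and 4 had a log2 fold change above 0 (median 0.0078). Likeness to the miRNA genes was taken only for Gm26917, Gm42418, Lars2 and n-R5-8s1. Of these, Gm26917, a long non-coding RNA locus, ran most like the miRNA genes, with r of 0.81 to Mir6236 and 0.87 to Mir5099. It had 343, 325 and 607 counts in the isotype EVs and 2500, 2055 and 716 in the anti-CD24 EVs (log2 fold change 1.18, adjusted p = 0.55 in the edgeR test). Gm42418 ran the other way, with r of -0.55 and -0.57, and Lars2 had 0.54 and 0.055. The rRNA gene n-R5-8s1 had -0.18 and -0.36.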

How the data were processed

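EV RNA of 3 isotype and 3 anti-CD24 samples was analysed, all of them grouped by the treatment in their titles. The authors used the FASTX toolkit for quality trimming, tmap for alignment and htseq-count for counting (HTSeq 0.5.4p5; union mode, by strand, on exons), and deposited raw counts per gene without normalization. The trimmer's parameters, as printed in the methods, appear to include a minimum read length longer than a mature miRNA. The build is given as GRCm38.p5 in the study's methods and GRCm38.p4 in the submitters' processing notes. The 5 summary lines of each file, 25.9% to 64.9% of its summed counts, were left out, and they list 0 reads as aligned to more than 1 place. Yet of the 134 genes with at least 10 counts in every sample only 107 had different count profiles. Copies of 5S rRNA genes such as n-R5s103 and n-R5s104 gave identical fits. A read with several equally good places thus appears to have been counted at each, so the totals are not numbers of separate reads. Genes were joined by identifier to GENCODE M21, and 419 of 47729 were not in it.

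The 2 members and all gene lists were chosen with earlier results of these data known. The tool for counts was edgeR 4.0.16, run in R 4.3.3 (quasi-likelihood test, TMM, at least 1.0 CPM in 3 samples, Benjamini-Hochberg at 0.05), a script that was first tested on simulated data. The standard error was derived from the fold change and the root of its F statistic. Group shares were compared with exact permutation tests and replicate pairs with exact sign-flip tests, computed with scipy 1.17.1. Nothing in the labels says more of the replicates than that they are biological replicates, so p-values measure the spread between these samples. Replicate numbers pair the samples because their libraries shared a sequencing run, which the run names give. The correlations of their deviations from the group means over the 1501 genes were -0.030, -0.024 and -0.106. Genes were named by a rule: the 2 members, the miRNA-biotype genes with a count in every sample, the 5 genes most like each member, genes sharing sequence with them, and listed genes. Snord83b, Zfp260, Mir155, Mir17, Mir223, Mir150, Mir142, Dicer1, Tarbp2, Ybx1 and the marker genes were named after their values were seen. Alternatives were DESeq2 1.42.0, other scalings, filters and denominators, the replicate block and each sample left out. Leaving anti-CD24 replicate 1 out of the likeness values, and the RNAfold 2.7.2 predictions, were chosen after seeing the data. Sequences were compared with BLAST+ 2.17.0. Per-sample intervals cover counting error only, since the reads carried no molecular identifiers.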

Additional observations from a re-analysis of the deposited data

How the results depend on the processing

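The log2 fold change of Mir6236 stayed above 0 in all 13 alternatives and crossed the threshold in 1, without anti-CD24 replicate 3 (2.22; edgeR adjusted p = 0.048). With 1 sample left out it ran from 1.44 to 2.24, and that of Mir5099 from 0.39 to 1.59. Mir5099 stayed above 0 and uncalled in its 12 alternatives, and it had no value with the filter of at least 10 counts in every sample, since it had 7 in one. The scaling shifted all genes together: the median log2 fold change was -0.29 with TMM, -0.35 without it, -0.88 with DESeq2's size factors in edgeR and -0.97 in DESeq2. The number of genes called, 1, became 2 without a filter and 0 with at least 10 counts in every sample, with the replicate block and in DESeq2, where 3, 20 and 95 genes had an unadjusted p under 0.05. It ran from 0 to 47 with 1 sample left out, with the 47 (46 of them higher) reached without anti-CD24 replicate 1. With the replicate block Mir6236 was 1.76 and Mir5099 1.28, both at an adjusted p of 0.99 in edgeR. The paired differences in share, 1.70 and 0.0159 points, and in log2 count ratio, 0.45, equal the unpaired ones by arithmetic. Their exact sign-flip p was 0.25, 0.25 and 0.5. The sign-flip test of 3 pairs cannot go below 0.25, nor the permutation test below 0.1. No call at 0.05 was therefore possible for the shares and the ratio. The share of non-rRNA counts kept its direction throughout, from 0.288 to 2.56 points for Mir6236 and from 0.0014 to 0.0323 points for Mir5099 with 1 sample left out. The log2 ratio of Mir6236 to Mir5099 reversed without isotype replicate 2 (-0.26) and without anti-CD24 replicate 1 (-0.012), in a range of -0.26 to 1.12. The causes were not tested. Mir5099 rests on 7 to 82 counts per sample.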
